A study of Mus musculus with 30 samples.

Results

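The genes described here encode the ligands of the transforming growth factor-β (TGF-β) pathway, the receptors that bind them, the proteins that hold them latent outside the cell, and the related ligand activin A with its antagonist. They were the rows of the count files whose gene symbol was Tgfb1, Tgfb2, Tgfb3, Inhba, Tgfbr1, Tgfbr2, Tgfbr3, Ltbp1, Ltbp3 or Fst, which made 10 of the 55487 genes listed. The choice rested on their known roles and not on their measured values, but was made with earlier results of these data known. All 10 passed the filter on low counts, a mean of at least 1 read per library, in both cell fractions.

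The libraries came from lung organoids of adult wild-type C57BL/6J mice. Freshly isolated lung cells depleted of CD31+ and CD45+ cells and enriched for Epcam+ epithelial cells (300000 per culture) were mixed in equal number with CCL206 cells, a mouse lung fibroblast line whose division had been blocked with mitomycin C, and were exposed for 72 h to 1 of 4 treatments. The treatments were vehicle, TGF-β (2 ng/ml), an IPF cocktail (IPFc) of 9 factors raised in idiopathic pulmonary fibrosis (TGF-β, TNFα, TSLP, CCL2 and the interleukins IL-33, IL-13, IL-8, IL-4 and IL-1β), and an exacerbation cocktail (EC) of 4 factors raised in exacerbations of COPD (TNFα, IL-1β, IL-6 and IL-8, which the study's methods list as its mouse homologue KC). IPFc thus held TGF-β itself, together with 8 other factors, and EC held none. After treatment the cultures were separated again with Epcam microbeads into an epithelial and a fibroblast fraction, and both were sequenced, which gave 30 libraries in 8 groups of a fraction and a treatment. The groups held 4 mice each, except that the fibroblast vehicle group held mice 1, 3 and 4 and the epithelial TGF-β group mice 2, 3 and 4. Every fibroblast library was of the same cell line, so the mouse number of a fibroblast library names the epithelial donor of its culture.

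TGF-β is secreted as an inactive complex, in which the mature dimer is held by its own propeptide and tethered to the matrix by a latent TGF-β binding protein (LTBP). Integrins, proteases and thrombospondin can release it. The free ligand binds the type II receptor TGFBR2, which recruits and phosphorylates the type I receptor TGFBR1, which in turn phosphorylates SMAD2 and SMAD3, and TGFBR3 (betaglycan) is a co-receptor that presents ligand. Activin A, a dimer of the Inhba product, signals to the same SMAD proteins through activin receptors, and follistatin (Fst) binds and neutralises activins. In the lung the pathway is known for matrix production by fibroblasts and for its effects on alveolar epithelial growth and differentiation.

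Counted reads ranged from 5113828 to 20317181 per library, and the fibroblast EC library of mouse 1 was the shallowest. Levels are given as CPM, the reads of a gene scaled to a library total common to all 30 libraries, with TMM scaling. The markers of each fraction were present: the summed level of 20 epithelial markers was 26920 to 33160 CPM in epithelial vehicle libraries, and that of 20 fibroblast markers was 9720 to 10380 CPM in fibroblast vehicle libraries, with Thy1 alone listed at 0 there. Of 10 immune markers 2 or 3 had a group mean of at least 1 CPM in each group and of 8 endothelial markers at most 2, with summed levels of at most 163 and 10.1 CPM.

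Neither fraction was free of the other, and the amount moved with the treatment. The share of the other fraction's RNA was estimated as the median ratio, over the other fraction's markers, of a library to its partner from the same culture. Fibroblast RNA made up 5.90% (range 4.22 to 9.48) of the epithelial libraries with vehicle, 11.4% (5.34 to 16.9) with EC, 11.1% (4.38 to 16.2) with IPFc and 27.7% (25.8 to 31.0) with TGF-β. Epithelial RNA made up 20.9% (15.4 to 29.5) of the fibroblast libraries with vehicle, 43.9% (36.4 to 57.5) with EC, 18.2% (10.9 to 31.6) with IPFc and 2.11% (0.938 to 3.52) with TGF-β. These ranges are between libraries, and single markers spread more widely. They ran from 16.5 to 183.1% in the fibroblast EC library of mouse 1 and from 17.5 to 89.1% in the epithelial TGF-β library of mouse 2. The SEs after subtraction do not include this spread. A second measure used the sex chromosomes, since Xist RNA was at 309 to 1864 CPM in fibroblast and at 54.4 to 654 CPM in epithelial libraries, while 4 Y-linked genes summed to 117 to 170 CPM in epithelial and to 0.858 to 51.8 CPM in fibroblast libraries. By this measure the mean fibroblast share of the epithelial libraries was 7.41% with vehicle and 32.9% with TGF-β, and the mean epithelial share of the fibroblast libraries was 20.9% and 1.27%. In the epithelial libraries the Y-linked sum was 121 to 140 CPM with vehicle and 128 to 170 CPM with TGF-β. It thus did not fall where the fibroblast share by Xist rose, and why was not tested. With EC the mean fibroblast share by Xist was 19.2% (range 5.28 to 45.8) beside 11.4% by the markers, and the highest value was that of mouse 1, whose fibroblast EC partner had the lowest Xist level of all fibroblast libraries (309 CPM). Changes are given below as counted and, where a member is much higher in one fraction or a call rests on it, also after the estimated share had been subtracted by each measure. A call here means an adjusted p under 0.05 by edgeR's quasi-likelihood test (two-sided, Benjamini-Hochberg over all genes tested, mouse as a block). In such bulk libraries fewer cells of a type and less RNA per cell cannot be told apart.

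**Figure D1:**
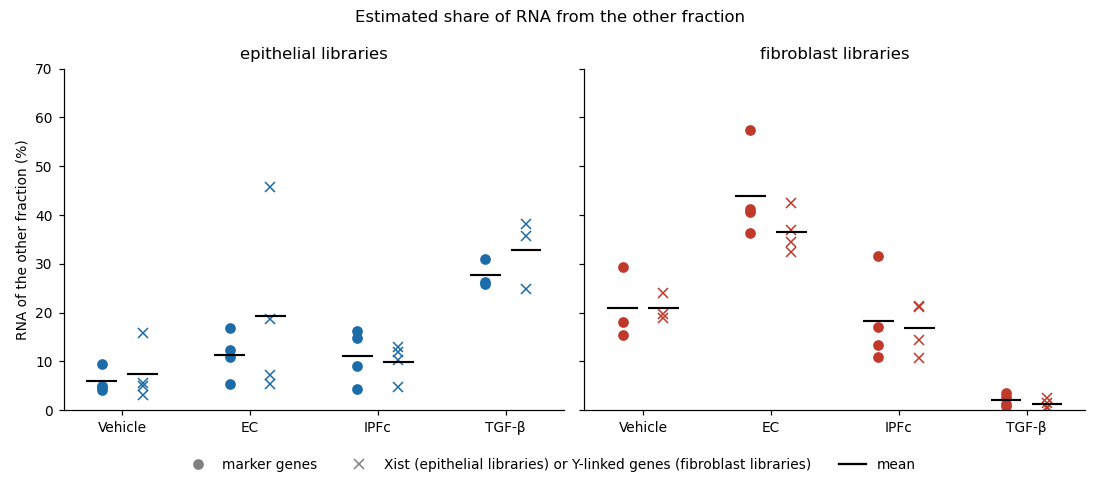
Share of the other fraction's RNA in each library, in percent, by group, estimated from 15 to 20 marker genes of the other fraction and from Xist or Y-linked genes, with 1 symbol per library and measure and a line at the mean. Epithelial TGF-β libraries lay at 25.8 to 31.0% by the markers, above every epithelial vehicle library (4.22 to 9.48%), while fibroblast TGF-β libraries lay at 0.938 to 3.52%, below every fibroblast vehicle library (15.4 to 29.5%).

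In the vehicle cultures the pathway was divided between the fractions. The comparison addressed where each component was transcribed. Epithelial libraries carried more Tgfb2 and more of the signalling receptors Tgfbr1 and Tgfbr2, and fibroblast libraries carried more Tgfb1, Inhba, Tgfbr3, Ltbp1, Ltbp3 and Fst. Of the 10 genes 9 were called between the fractions, 3 higher and 6 lower in the epithelial fraction, where 56% of the 18364 genes tested were called. The median difference of the members was −2.13 (log2, epithelial over fibroblast), beside 0.02 over all genes. After subtraction the 9 differences had the same direction by both measures, and each was larger, as for Tgfb2 (log2 3.46 and 3.36) and Inhba (−3.77 and −4.16). With shares and gaps of this size, subtraction takes relatively more from the fraction with the lower level. The widening thus follows from the method and does not test the division.

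Tgfb1, the ligand most studied in fibrosis, lies on chr7:25386390-25404506 (plus strand, GRCm39). It was at 14.1, 15.8, 18.7 and 9.59 CPM in the epithelial vehicle libraries of mice 1 to 4 and at 51.0, 47.7 and 64.8 CPM in the fibroblast vehicle libraries of mice 1, 3 and 4. Every fibroblast library was above every epithelial library, and the epithelial level was 0.266 of that in fibroblasts (log2 −1.91 ± 0.20, SE, adjusted p = 3.72e-09, edgeR). Tgfb2, on chr1:186354985-186438294 (minus strand), was the ligand with the opposite order, at 33.5, 33.0, 39.1 and 44.3 CPM in epithelial and 9.25, 11.2 and 13.0 CPM in fibroblast libraries. It was 3.61-fold higher in the epithelial fraction (log2 1.85 ± 0.16, adjusted p = 1.79e-10), with no overlap. Tgfb3, on chr12:86102756-86126301 (minus strand), was at 71.1, 67.3, 81.2 and 62.0 CPM in epithelial and 64.7, 67.7 and 68.8 CPM in fibroblast libraries. Its groups overlapped and it was not called (log2 0.11, 95% interval −0.17 to 0.40). Inhba, which encodes the subunit of activin A and lies on chr13:16186373-16206206 (plus strand), was at 12.1, 13.0, 11.3 and 7.89 CPM in epithelial and 66.5, 106 and 56.6 CPM in fibroblast libraries. The epithelial level was 0.140 of that in fibroblasts (log2 −2.84 ± 0.17, adjusted p = 4.23e-13).

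The bases before the start of these genes are shown for the ligand genes whose levels changed most with treatment below. RefSeq promoters (build GRCm38.p6) matched 7 of the 10 genes, with 9 start sites; Tgfb3, Tgfbr3 and Fst were not matched. Each line holds the 250 bases before the start, 5′ to 3′ on the gene's strand, and capitals mark every match, on either strand, to any of 4 motifs, and no matches overlapped in the sequences shown. The first, called a GC box, is read as GGGCGG in the gene's own strand or its complement. The next, a box found at some start sites and named after its letters, is TATAAA with both strands read. A SMAD box, the short element that SMAD3 binds, was searched as CAGAC in the same way. The last was the AP-1 site, spelled TGANTCA, in which N stands for any base. The regions are chr7:25686752-25687001 (plus strand) for Tgfb1, chr13:16011601-16011850 (plus strand) for Inhba and chr1:186705990-186706239 (minus strand) for Tgfb2.
Tgfb1: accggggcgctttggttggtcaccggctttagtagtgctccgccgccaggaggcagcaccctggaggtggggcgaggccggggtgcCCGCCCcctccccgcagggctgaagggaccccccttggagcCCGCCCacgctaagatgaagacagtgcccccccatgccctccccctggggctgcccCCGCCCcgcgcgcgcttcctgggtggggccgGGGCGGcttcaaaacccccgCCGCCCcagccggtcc
Inhba: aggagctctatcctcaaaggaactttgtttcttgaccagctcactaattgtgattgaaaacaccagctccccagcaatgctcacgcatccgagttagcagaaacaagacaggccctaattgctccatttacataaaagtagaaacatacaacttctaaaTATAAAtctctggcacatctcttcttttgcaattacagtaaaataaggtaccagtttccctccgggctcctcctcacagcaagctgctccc
Tgfb2: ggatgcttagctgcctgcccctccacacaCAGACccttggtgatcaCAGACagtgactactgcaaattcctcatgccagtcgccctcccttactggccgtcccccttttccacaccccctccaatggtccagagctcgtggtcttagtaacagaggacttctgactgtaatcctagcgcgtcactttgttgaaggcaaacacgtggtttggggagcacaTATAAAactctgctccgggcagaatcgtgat
The Tgfb1 sequence held 5 GC boxes, at 164, 123, 67, 36 and 16 bases before the start, and none of the other letters. The Inhba sequence held a TATA box at 91 bases before the start, and that of Tgfb2 held a TATA box at 31 and SMAD boxes at 221 and 204 bases before it. Among all 32851 promoters of the same length 32.7% held a GC box, 12.4% a TATA box, 42.2% a SMAD box and 6.75% an AP-1 site. These are matches of letters only, and no binding was measured.

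Among the receptors, Tgfbr1 (chr4:47353134-47414931, plus strand), the type I kinase, was at 91.3, 90.3, 73.8 and 106 CPM in epithelial and 40.6, 50.9 and 38.5 CPM in fibroblast vehicle libraries. Its type II partner Tgfbr2 (chr9:115913361-116004800, minus strand) was at 289, 267, 308 and 302 CPM in epithelial and 155, 177 and 192 CPM in fibroblast libraries. Both were higher in every epithelial library, by 2.06-fold for Tgfbr1 (log2 1.04 ± 0.18, adjusted p = 1.30e-05) and by 1.67-fold for Tgfbr2 (log2 0.74 ± 0.13, adjusted p = 1.80e-05). The call for Tgfbr1 was lost after subtraction of the share by Xist and Y-linked genes, and the direction was the same. The co-receptor Tgfbr3 (chr5:107249402-107437623, minus strand) showed the widest gap of the 10 genes, with 22.4, 13.3, 8.67 and 14.9 CPM in epithelial against 238, 277 and 238 CPM in fibroblast libraries. Its epithelial level was 0.0545 of that in fibroblasts (log2 −4.20 ± 0.27, adjusted p = 1.30e-12). The fibroblast share alone would bring a median of 105.9% of the Tgfbr3 level of the epithelial vehicle libraries.

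The LTBP genes were fibroblast genes by level. Ltbp1 (chr17:75312519-75699507, plus strand) was at 70.6, 40.5, 35.5 and 46.0 CPM in epithelial and 452, 545 and 537 CPM in fibroblast vehicle libraries. Ltbp3 (chr19:5790932-5808669, plus strand) was at 140.2, 118, 124 and 100.1 CPM in epithelial and 574, 562 and 692 CPM in fibroblast libraries. The groups were far apart for both, with log2 differences of −3.46 ± 0.26 (adjusted p = 1.06e-11) and −2.36 ± 0.19 (adjusted p = 5.67e-11). Fst (chr13:114588731-114595521, minus strand), the activin antagonist, was at 7.06, 4.30, 5.33 and 5.94 CPM in epithelial and 45.3, 53.2 and 43.3 CPM in fibroblast libraries, a log2 difference of −3.10 ± 0.25 (adjusted p = 4.78e-11). The epithelial levels of these genes include fibroblast RNA: its share would bring a median of 63.8% of the Ltbp1, 35.8% of the Ltbp3 and 46.7% of the Fst level of epithelial vehicle libraries.

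Levels of different genes were compared only per kilobase of exon (CPM per kb, over the union of annotated exons). In epithelial vehicle libraries Tgfbr2 led at 33.2 ± 2.06 CPM per kb (SD, n = 4), followed by Tgfbr1 at 13.6 ± 1.97, Tgfb3 at 13.5 ± 1.55 and Ltbp3 at 12.8 ± 1.76 CPM per kb, which were within 1 SD of each other. Inhba at 1.56 ± 0.31 and Fst at 1.20 ± 0.24 CPM per kb were the lowest. In fibroblast vehicle libraries the order per kb was headed by Ltbp3 at 65.0 ± 7.61, Ltbp1 at 47.6 ± 4.81 and Tgfbr3 at 36.7 ± 3.31 CPM per kb (SD, n = 3), and ended with Tgfb2 at 1.78 ± 0.30 CPM per kb. Of the 3 TGF-β ligands Tgfb3 had the highest level per kb in both fractions of the vehicle cultures. With the longest annotated transcript as the length, the fibroblast vehicle level of Tgfb1 was 21.2 in place of 10.7 CPM per kb and that of Tgfb3 was 16.1 in place of 12.9, so in fibroblasts the order of these ligands turned with the length used.

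**Figure D2:**
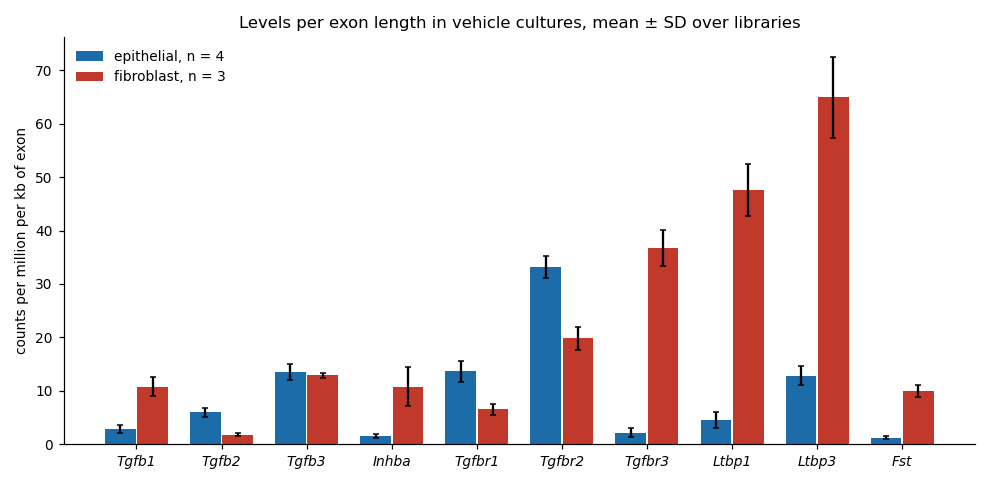
Levels of the 10 genes in CPM per kilobase of exon in the vehicle libraries of each fraction, as bars of the mean with the SD (epithelial n = 4, fibroblast n = 3). Fibroblast vehicle libraries were highest for Ltbp3 (mean 65.0 CPM per kb) and lowest for Tgfb2 (1.78), and epithelial vehicle libraries were highest for Tgfbr2 (33.2) and lowest for Fst (1.20).

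Exposure to TGF-β tested how the pathway's own components responded to the ligand. In the epithelial fraction 9 of the 10 genes were called, 8 higher and 1 lower, where 41.1% of the 18024 genes tested were called, and the members' median log2 change was 1.25 beside 0.03 over all genes. In the fibroblast fraction 6 were called, 3 higher and 3 lower, where 19.2% of 18048 genes were called, with a median of 0.06 beside −0.02. As counted, Tgfb1 and Inhba were called higher in both fractions, and Tgfb2 was called higher in the epithelial and lower in the fibroblast fraction.

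Tgfb1 was at 42.1, 42.6 and 51.8 CPM in the epithelial TGF-β libraries of mice 2, 3 and 4 and at 125, 116, 137 and 179 CPM in the fibroblast TGF-β libraries of mice 1 to 4. Both groups stood clear of their vehicle libraries. The rise was 3.23-fold in the epithelial fraction (log2 1.69 ± 0.19, adjusted p = 3.15e-07, 3 of 3 mice) and 2.72-fold in fibroblasts (log2 1.44 ± 0.14, adjusted p = 5.77e-07, 3 of 3 mice), and the difference between these rises was not called (log2 0.27, 95% interval −0.23 to 0.78, adjusted p = 0.459; −1.73 and −3.04 after subtraction, not called). The fibroblast share would bring a median of 77.6% of the Tgfb1 level of epithelial TGF-β libraries. After subtraction the epithelial change was −0.43 ± 0.51 (log2) by the markers and −1.94 ± 1.78 by Xist, neither called, while the fibroblast rise was 1.17 ± 0.15 and 1.20 ± 0.14, both called.

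Inhba had the largest log2 change of the 10 genes in the epithelial fraction, as counted. It was at 142, 165 and 139.7 CPM in the epithelial TGF-β libraries of mice 2, 3 and 4, each over 10 times the highest vehicle library, and at 233, 263, 226 and 171 CPM in fibroblasts. Inhba rose 14.1-fold in the epithelial fraction (log2 3.82 ± 0.15, adjusted p = 1.71e-13) and 3.02-fold in fibroblasts (log2 1.60 ± 0.15, adjusted p = 4.38e-07), and the rises differed by 2.25 ± 0.21 (log2, adjusted p = 7.27e-09). The fibroblast share would bring a median of 35.4% of its epithelial TGF-β level. After subtraction Inhba was called higher by both measures in both fractions, with epithelial log2 changes of 4.16 ± 0.28 and 4.28 ± 0.85 and a fibroblast change of 1.30 ± 0.18 by each.

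As counted, Tgfb2 moved in opposite directions. It was at 38.1, 49.8 and 62.5 CPM in epithelial TGF-β libraries of mice 2, 3 and 4, above the same mouse's vehicle library in 3 of 3 pairs although the groups overlapped, and the change was 1.30-fold (log2 0.38 ± 0.13, adjusted p = 0.0196). The epithelial call was lost without mouse 2 (log2 0.38) and without mouse 4 (0.26). It was at 6.33, 5.61, 6.02 and 6.95 CPM in fibroblast TGF-β libraries, all below the vehicle libraries, and the level was 0.633 of vehicle (log2 −0.66 ± 0.19, adjusted p = 0.0216). The fibroblast call was lost without mouse 3 (−0.58) and without mouse 4 (−0.62). The epithelial share, which was 20.9% in vehicle and 2.11% in TGF-β fibroblast libraries, would bring a median of 62.0% of the fibroblast vehicle level, and after subtraction the fibroblast change was 0.82 ± 0.83 and 0.68 ± 0.63, not called. In the epithelial fraction, where the fibroblast share brings a median of 3.21% of the level, the subtracted change was 0.73 ± 0.13 and 0.81 ± 0.17, called by both measures. The difference between the fractions was 1.07 (log2) as counted, called, and 0.004 and 0.07 after subtraction, not called.

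Tgfb3 was at 59.9, 53.3 and 54.1 CPM in epithelial TGF-β libraries, below every vehicle library but not called (log2 −0.30 ± 0.13, adjusted p = 0.0644). The call was gained without mouse 2 (−0.47) and without mouse 4 (−0.40), and after subtraction by either measure (−0.77 ± 0.16 and −1.03 ± 0.24). In fibroblasts it was at 109.6, 90.5, 106 and 105 CPM, above all vehicle libraries, a 1.69-fold rise (log2 0.76 ± 0.13, adjusted p = 0.000332). That rise was 0.73 ± 0.19 after subtraction by the markers, not called, and 0.78 ± 0.19 by the Y-linked genes, called. The responses of the fractions differed by −1.04 ± 0.18 (log2, adjusted p = 9.08e-05).

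**Figure D3:**
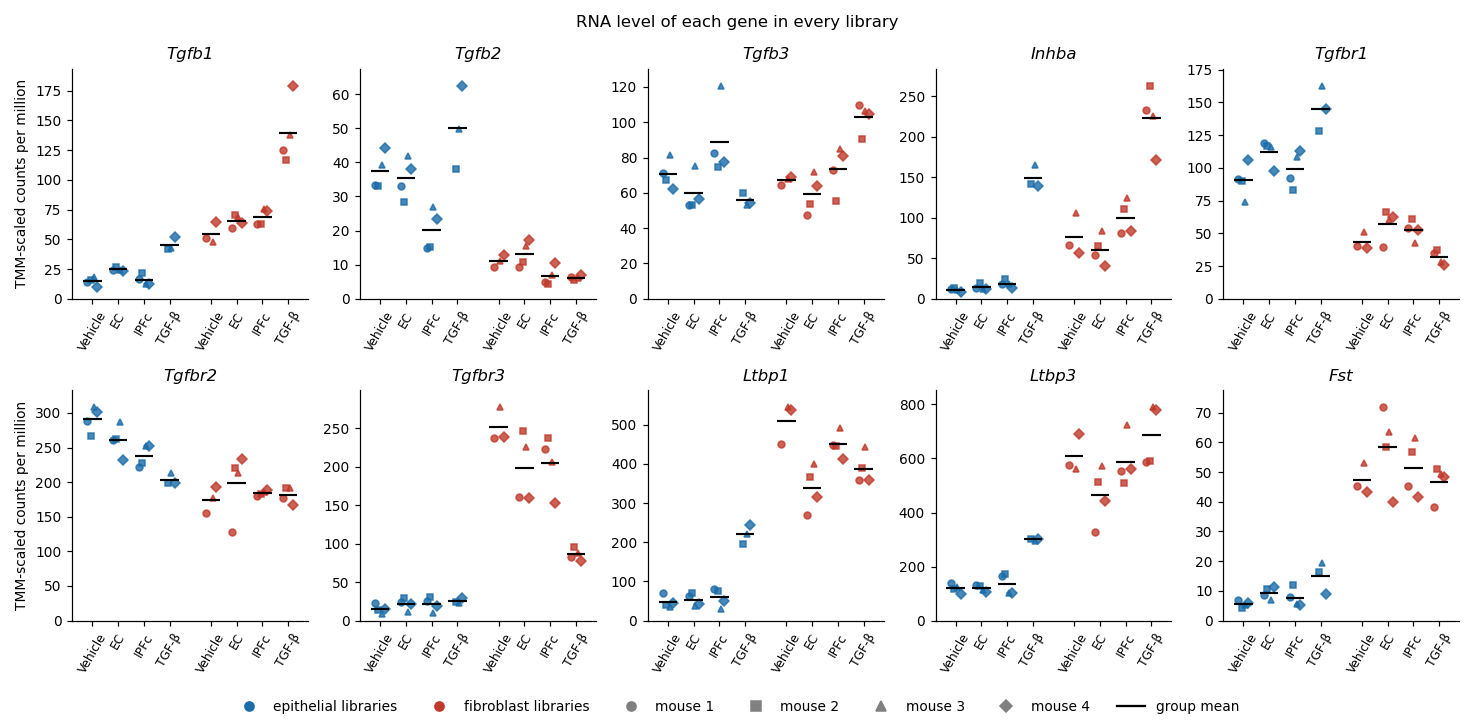
Levels of the 10 genes in CPM (linear axis from 0, its own scale for each gene) in each of the 30 libraries, by treatment, with the fractions in separate colours, the mice as symbols and a line at the group mean. Epithelial Inhba lay at 7.89 to 13.0 CPM with vehicle and at 139.7 to 165 CPM with TGF-β, and fibroblast Tgfbr3 at 238 to 277 CPM with vehicle and 78.0 to 95.4 CPM with TGF-β.

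Of the receptors, Tgfbr1 was at 128, 163 and 145 CPM in the epithelial TGF-β libraries, all above vehicle, a rise of 1.65-fold (log2 0.73 ± 0.13, adjusted p = 0.000105). In fibroblasts it was at 35.3, 37.0, 28.0 and 25.9 CPM, below the vehicle libraries, and the change of −0.47 ± 0.17 was not called (adjusted p = 0.0731), though it was without mouse 1 (−0.62); after subtraction it was −0.09 ± 0.88 and −0.14 ± 0.83. Tgfbr2 was at 199, 213 and 199.5 CPM in epithelial TGF-β libraries, all below vehicle, a level of 0.714 of vehicle (log2 −0.49 ± 0.09, adjusted p = 0.000194). The type I and type II receptor genes thus changed in opposite directions in the epithelial fraction. After subtraction the epithelial calls for both stood by each measure, at 1.06 ± 0.14 and 1.14 ± 0.19 for Tgfbr1 and at −0.44 ± 0.10 and −0.44 ± 0.11 for Tgfbr2. In fibroblasts Tgfbr2, at 178, 191, 191 and 167 CPM, overlapped its vehicle libraries and was not called (log2 0.11, 95% interval −0.21 to 0.42).

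Tgfbr3, the co-receptor, was at 82.7, 95.4, 88.2 and 78.0 CPM in fibroblast TGF-β libraries, each less than the lowest vehicle library by over 100 CPM. The level was 0.339 of vehicle (log2 −1.56 ± 0.13, adjusted p = 1.28e-07), and −1.88 ± 0.14 and −1.87 ± 0.14 after subtraction, called by both measures. Epithelial TGF-β libraries held 24.3, 23.3 and 29.5 CPM, a rise of 2.07-fold (log2 1.05 ± 0.20, adjusted p = 0.000235) with no overlap. The fibroblast share would bring a median of 91.3% of that epithelial level, and after subtraction the change was 3.91 ± 1.17, called by the markers, and 5.31 ± 2.51, not called by Xist. The same share would bring 82.8 to 149.8% of the epithelial vehicle level, and subtracted counts were not allowed to go negative. These changes thus set a small remainder against a vehicle level of little or none, and their size cannot be read.

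For the latency proteins, Ltbp1 was at 195, 222 and 243 CPM in epithelial TGF-β libraries and Ltbp3 at 302, 296 and 303 CPM, all clear of vehicle. Ltbp1 rose 5.48-fold (log2 2.45 ± 0.19, adjusted p = 1.53e-09) and Ltbp3 2.72-fold (log2 1.44 ± 0.12, adjusted p = 6.23e-09). The fibroblast share would bring a median of 48.2% of the Ltbp1 and 64.3% of the Ltbp3 level. After subtraction Ltbp1 changed by 3.48 ± 0.57 by the markers, called, and 3.64 ± 1.72 by Xist, not called, and Ltbp3 by 0.87 ± 0.14, called, and 0.06 ± 1.13, not called. By Xist the share took the whole Ltbp1 level of 2 epithelial libraries of mouse 1 in this fit. Before TMM scaling these were EC (45.8% of 264 CPM in the partner, against 61 CPM) and vehicle (15.9% of 473, against 70.3). Mouse 1 had no epithelial TGF-β library. The calls lost by Xist thus do not show that the rises were absent. In fibroblasts Ltbp1 was at 359, 389.9, 444 and 359 CPM, below each vehicle library, with a change of −0.35 ± 0.12 (adjusted p = 0.0468). This call was lost without mouse 2 (−0.34), 3 (−0.38) or 4 (−0.26), and the change was −0.66 ± 0.15 and −0.65 ± 0.12 after subtraction, both called. Fibroblast Ltbp3, at 587, 592, 789 and 778 CPM, overlapped its vehicle libraries (log2 0.24, 95% interval −0.08 to 0.56, not called; −0.05 and −0.03 after subtraction).

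Fst was at 16.4, 19.4 and 9.09 CPM in epithelial TGF-β libraries, above every vehicle library, a rise of 2.76-fold (log2 1.46 ± 0.27, adjusted p = 0.000198). The fibroblast share would bring a median of 77.9% of that level, and after subtraction the change was not called by either measure (0.32 and 0.71). Fibroblast libraries held 38.4, 51.2, 49.3 and 48.4 CPM, overlapping vehicle, and Fst was not called there (log2 0.02, 95% interval −0.33 to 0.38; −0.28 and −0.27 after subtraction). Its known ligand gene Inhba was called higher in the same fibroblast libraries, as given above.

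**Figure D4:**
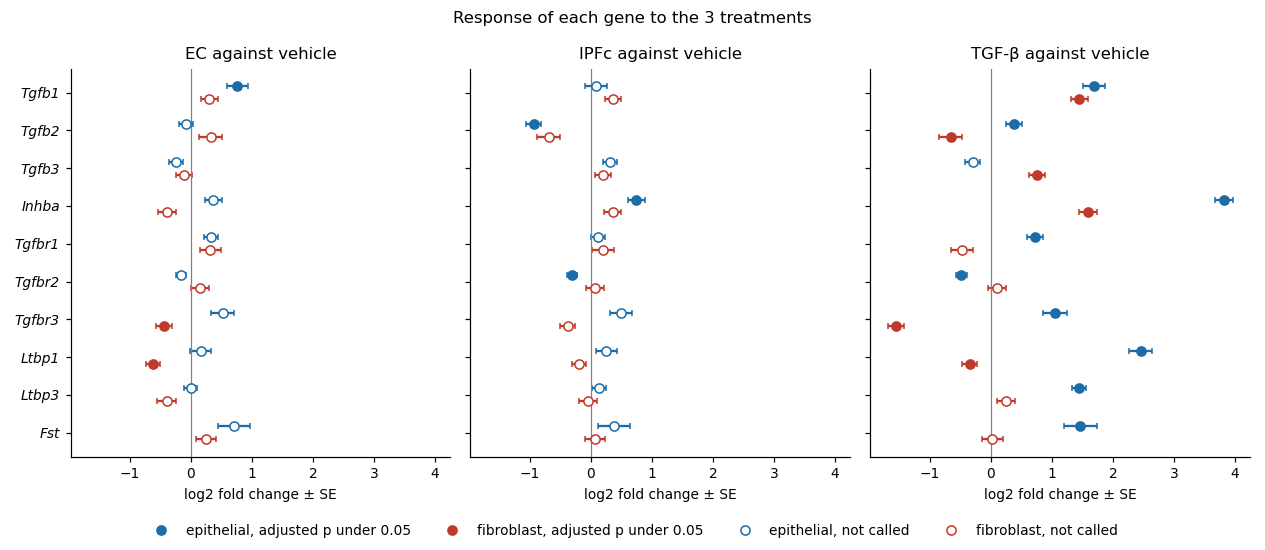
Log2 change against vehicle of the 10 genes after EC, IPFc and TGF-β in each fraction, with the SE as bars; filled points were called (adjusted p under 0.05) and open points were not. After TGF-β 9 epithelial and 6 fibroblast changes were called, after EC 1 and 2, and after IPFc 3 and 0.

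**Figure D5:**
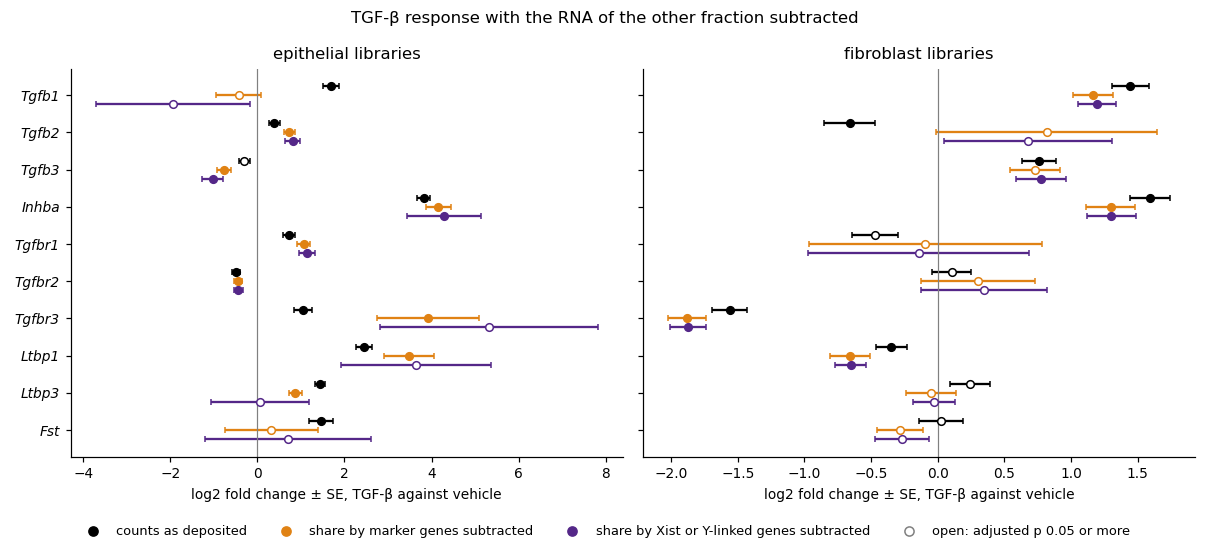
Log2 change after TGF-β of the 10 genes in each fraction as counted and after subtraction of the other fraction's share by marker genes and by Xist or Y-linked genes, with the SE as bars and open points for changes not called; the fractions have axes of different range. Epithelial Inhba stayed high (3.82, 4.16 and 4.28), while epithelial Tgfb1 went from 1.69 to −0.43 and −1.94.

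The TGF-β responses differed between the fractions for 9 of the 10 genes, 7 with the more positive change in the epithelial and 2 in the fibroblast fraction, where 27.5% of 18364 genes were called in this test of the difference itself. The members' median difference was 1.22 (log2), beside 0.21 over all genes. The widest were Ltbp1 at 2.83 ± 0.25 (adjusted p = 2.98e-09) and Tgfbr3 at 2.64 ± 0.25 (adjusted p = 1.35e-08), each rising in the epithelial and falling in the fibroblast fraction. The call for Tgfbr2 (−0.57 ± 0.17, adjusted p = 0.0146) was lost without mouse 2 (−0.61) or 3 (−0.49), and that for Fst (1.47 ± 0.34, adjusted p = 0.00171) without mouse 3 (1.17). With the other fraction's share subtracted 5 of the differences were called by the markers and 2 by Xist and Y-linked genes, the latter Tgfb3 and Tgfbr3. For Tgfbr3 the epithelial vehicle level after subtraction was little or none, as given above.

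After EC, which holds no TGF-β, few of the 10 genes were called. In the epithelial fraction 1 was called, where 4.41% of all genes were called, and 6 had an unadjusted p under 0.05. The share of all genes at that unadjusted threshold is not given, here or for the later counts of this kind. The shares called are thus no background for such counts. Tgfb1 was at 24.1, 26.9, 24.0 and 23.5 CPM in epithelial EC libraries, above every vehicle library and above vehicle in 4 of 4 mice, a rise of 1.69-fold (log2 0.76 ± 0.17, adjusted p = 0.0119). The call was lost without mouse 1 (0.75), and after subtraction (0.80 ± 0.45 and 0.44 ± 1.37). Fst was at 8.59, 10.6, 6.86 and 11.4 CPM and Tgfbr3 at 23.6, 28.9, 11.4 and 21.1 CPM, each higher than vehicle in 4 of 4 mice without being called (log2 0.70, 95% interval 0.17 to 1.24, and log2 0.52, 95% interval 0.14 to 0.90). After subtraction Fst changed by 0.01 and 0.33 and Tgfbr3 by −0.28 and 2.78 with none called, so the direction of Tgfbr3 turned by the markers. Tgfbr1, at 119, 117, 116 and 97.3 CPM, was called only without mouse 4 (0.46). The members' median change was 0.24, beside 0.003 over all genes.

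In the fibroblast fraction 2 of the 10 genes were called after EC, both lower, where 7.11% of all genes were called, and 5 had an unadjusted p under 0.05. Ltbp1 was at 270.0, 366, 399 and 316 CPM, below all vehicle libraries, a level of 0.647 of vehicle (log2 −0.63 ± 0.12, adjusted p = 0.00407). Tgfbr3 was at 161, 247, 225 and 159 CPM, overlapping vehicle but lower in 3 of 3 mice (log2 −0.45 ± 0.13, adjusted p = 0.0487). The Ltbp1 call was lost without mouse 3 (−0.68) or 4 (−0.55), and that of Tgfbr3 without mouse 2 (−0.46), 3 (−0.47) or 4 (−0.38). Neither was called after subtraction, with changes of −0.26 and −0.40 for Ltbp1 and of −0.06 and −0.21 for Tgfbr3, beside a mean epithelial share of 43.9% in the EC fibroblast libraries. Inhba, at 53.6, 65.5, 83.3 and 40.9 CPM, was not called (log2 −0.39 ± 0.14, and −0.07 and −0.20 after subtraction) except without mouse 1 (−0.45). The members' median change was 0.01, beside −0.02 over all genes.

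The EC responses differed between the fractions for 2 genes, where 4.59% of all genes were called. Inhba changed by 0.36 in the epithelial and −0.39 in the fibroblast fraction (difference 0.75 ± 0.21, adjusted p = 0.0340), and Tgfbr3 by 0.52 and −0.45 (difference 0.96 ± 0.24, adjusted p = 0.0203). Both calls were lost without mouse 2, 3 or 4 (Inhba 0.63, 0.81 and 0.67, Tgfbr3 0.78, 1.03 and 0.90). After subtraction neither was called, with differences of 0.35 and 0.34 for Inhba and of −0.25 and 3.18 for Tgfbr3. The EC difference of Tgfb2, not called as counted (−0.42), was called after subtraction by the markers (3.21) and not by Xist and Y-linked genes (0.43). The epithelial share would bring a median of 110% of the fibroblast EC level of Tgfb2.

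IPFc lowered Tgfb2 in the epithelial fraction. Its level was 14.8, 15.1, 26.8 and 23.5 CPM, below every vehicle library and lower in 4 of 4 mice, 0.522 of vehicle (log2 −0.94 ± 0.12, adjusted p = 3.68e-05). This fall was −0.88 ± 0.12 and −0.92 ± 0.16 after subtraction, called by both measures, and this call stood when any 1 mouse was left out. Inhba was at 18.6, 24.2, 18.5 and 13.9 CPM, all above vehicle, a rise of 1.68-fold (log2 0.74 ± 0.14, adjusted p = 0.00213), not called after subtraction (0.27 and 1.10). Tgfbr2 was at 222, 227, 252 and 252 CPM, all below vehicle, with a change of −0.30 ± 0.08 (adjusted p = 0.0351). The Tgfbr2 call was lost without mouse 1 (−0.27), 2 (−0.32) or 3 (−0.31) and after subtraction (−0.29 and −0.31). These 3 calls stand beside 4.1% of all genes called, and the members' median change was 0.20, beside 0.01 over all genes.

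In fibroblasts exposed to IPFc none of the 10 genes was called by edgeR or by DESeq2, where 0.449% of all genes were called, and 4 had an unadjusted p under 0.05. Tgfb2 was at 4.92, 4.44, 6.92 and 10.4 CPM, lower than vehicle in 3 of 3 mice (log2 −0.69, 95% interval −1.09 to −0.29, adjusted p = 0.208). After subtraction of the epithelial share its direction turned, to 0.35 ± 0.82 by the markers and 0.01 ± 0.62 by the Y-linked genes. Tgfb1 was at 62.5, 62.6, 75.6 and 73.5 CPM (log2 0.36, 95% interval 0.08 to 0.65) and Inhba at 80.8, 110.3, 124 and 84.3 CPM (log2 0.35, 95% interval 0.05 to 0.66), both higher than vehicle in 3 of 3 mice with overlapping groups, and by 0.35 and 0.32 for Tgfb1 and 0.33 and 0.28 for Inhba after subtraction. Tgfbr3 was at 224, 238, 206 and 153 CPM, all below the vehicle libraries, and was called only without mouse 1 (−0.52). The members' median change was 0.07, beside −0.003 over all genes. For the difference between the fractions in the IPFc response none was called by either tool, where 0.229% of all genes were called, and 2 had an unadjusted p under 0.05.

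Since IPFc contains TGF-β, both were also set against each other. In the epithelial fraction 9 of the 10 genes differed, 1 higher and 8 lower with IPFc than with TGF-β, where 37.2% of all genes were called, and the median was −1.20, beside −0.04 over all genes. Inhba was 0.119 of its TGF-β level (log2 −3.07 ± 0.14, adjusted p = 1.53e-12), Ltbp1 0.218 (log2 −2.20 ± 0.18, adjusted p = 9.91e-09) and Tgfb2 0.400 (log2 −1.32 ± 0.13, adjusted p = 7.20e-08). Tgfb3, at 82.7, 74.6, 121 and 77.5 CPM with IPFc, was higher than with TGF-β by 0.61 ± 0.13 (log2, adjusted p = 0.00066), and Tgfbr2 was not called (0.18, 95% interval −0.01 to 0.37). The call for Tgfbr3 (−0.56 ± 0.20, adjusted p = 0.0301) was lost without mouse 1 (−0.54), 3 (−0.25) or 4 (−0.43), and that for Fst (−1.09 ± 0.27, adjusted p = 0.00285) without mouse 3 (−0.68). After subtraction by the markers 6 of the 9 calls stood, those for Tgfb2, Tgfb3, Inhba, Tgfbr1, Ltbp1 (−4.71 ± 0.61) and Ltbp3 (−1.04 ± 0.14), and by Xist the first 4 of these stood. Tgfb1 turned to 0.06 and 1.76, Tgfbr3 was at −2.20 and −2.39 and Fst at −1.05 and 0.49, none called, and by Xist Ltbp1 was at −2.66 and Ltbp3 at 0.15.

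In the fibroblast fraction 5 of the 10 genes differed between IPFc and TGF-β, 2 higher and 3 lower with IPFc, where 17.4% of all genes were called, and the median was −0.04, beside 0.01 over all genes. Tgfb1 was 0.473 (log2 −1.08 ± 0.12, adjusted p = 4.12e-06), Inhba 0.423 (log2 −1.24 ± 0.13, adjusted p = 1.79e-06) and Tgfb3 0.675 (log2 −0.57 ± 0.12, adjusted p = 0.00179) of the TGF-β level. Tgfbr3 was 2.26-fold (log2 1.18 ± 0.12, adjusted p = 1.33e-06) and Tgfbr1 1.59-fold higher (log2 0.67 ± 0.16, adjusted p = 0.00588) with IPFc, in 4 of 4 mice each. The Tgfbr1 call was lost without mouse 4 (0.58). The calls for Tgfb1, Inhba and Tgfbr3 stood after subtraction by both measures. The concentrations of TGF-β within IPFc and alone need not be the same, so these differences compare the treatments as given.

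Over all 8 groups Tgfb1 was highest in fibroblasts with TGF-β (139 ± 27.8 CPM, SD, n = 4), which overlapped no other group, and lowest in epithelial IPFc (15.8 ± 4.59) and vehicle libraries (14.6 ± 3.82), which overlapped each other. Tgfb2 was highest in epithelial TGF-β (50.1 ± 12.2 CPM, n = 3), vehicle (37.5 ± 5.33) and EC libraries (35.3 ± 5.85), which overlapped. It was lowest in fibroblasts with IPFc (6.66 ± 2.69) and TGF-β (6.23 ± 0.564), which overlapped too. The fibroblast IPFc libraries (up to 10.4 CPM) also overlapped the vehicle (from 9.25) and EC libraries (from 9.19) of that fraction. Inhba ran from 223 ± 38.4 CPM in fibroblasts with TGF-β, through 149 ± 13.8 in epithelial libraries with TGF-β, to 11.1 ± 2.23 in epithelial vehicle libraries. Tgfb3 ran from 103 ± 8.47 CPM in fibroblasts with TGF-β to 55.7 ± 3.59 in epithelial libraries with TGF-β. Tgfbr1 was highest in epithelial TGF-β libraries (145 ± 17.4 CPM) and lowest in fibroblast TGF-β libraries (31.6 ± 5.42). Tgfbr2 ran from 292 ± 18.1 CPM in epithelial vehicle to 175 ± 18.9 in fibroblast vehicle libraries, with epithelial TGF-β libraries at 204 ± 7.71 CPM. For Tgfbr3, Ltbp1, Ltbp3 and Fst all 4 fibroblast groups had higher means than all 4 epithelial groups.

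The rest of the pathway was read from a list of 45 other genes in 6 roles, of which 45 were tested in the epithelial and 43 in the fibroblast fraction. After TGF-β 32 were called in the epithelial fraction (30 higher, 2 lower, median log2 change 1.15) and 22 in fibroblasts (16 higher, 6 lower, median 0.29), beside the same 41.1% and 19.2% of all genes. After subtraction 19 of 42 tested were called in the epithelial fraction by the markers and 15 of 44 by Xist, and 10 of 42 and 12 of 43 in fibroblasts. For fits of subtracted counts or with 1 mouse left out, the share of all genes called is not given. The percentages of all genes in this paragraph are thus no background for those counts. EC called 4 epithelial genes (2 higher, 2 lower), 8.89% of those tested beside 4.41% of all genes. It called 7 fibroblast genes (1 higher, 6 lower), 16.3% beside 7.11%, and IPFc called 7 epithelial genes, all higher, 15.6% beside 4.1%. After subtraction by the markers and by Xist or Y-linked genes these counts were 2 and 0 for epithelial EC, 0 and 0 for fibroblast EC and 2 and 0 for epithelial IPFc. Leaving out 1 mouse gave 1 epithelial EC call without mouse 1 and 2 without mouse 2, 12 fibroblast EC calls without mouse 1, 4 without mouse 3 and 1 without mouse 4, and 11 epithelial IPFc calls without mouse 3. In fibroblasts IPFc called 0 by edgeR, beside 0.449% of all genes, and 1 by DESeq2, and 5 had an unadjusted p under 0.05.

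The changes by role are given as counted, and subtracted values of the single genes are not given. The mean fibroblast share of the epithelial libraries was 27.7% with TGF-β against 5.90% with vehicle. Of 6 genes of latency and storage 4 rose in the epithelial fraction with TGF-β (66.7% called beside 41.1% of all genes). In fibroblasts 1 rose and 1 fell of 5 tested (40% beside 19.2%). Fbn1, the microfibril fibrillin to which LTBPs bind, rose by 4.38 (log2) in the epithelial and 2.09 in the fibroblast fraction, and Ltbp2 rose by 1.67 in the epithelial and fell by 0.76 in the fibroblast fraction. Of 10 genes of activation 9 rose in the epithelial fraction (90% beside 41.1%), and 5 rose and 2 fell in fibroblasts (70% beside 19.2%). The integrin subunit gene Itgb6, whose αvβ6 integrin releases latent TGF-β on epithelium, rose by 1.75 in the epithelial and fell by 1.88 in the fibroblast fraction, where the mean epithelial share was 20.9% with vehicle and 2.11% with TGF-β, and Itgb5 rose by 2.16 and 1.75. Fbn1 and the protease gene Mmp2 (2.83 and 0.85) are also on the fibroblast marker list, as is Col1a1, 1 of the response genes counted below.

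Of 6 co-receptor and modulator genes 3 were called in the epithelial fraction (2 higher, 1 lower), 50% beside 41.1% of all genes. In fibroblasts 2 were called (1 higher, 1 lower), 33.3% beside 19.2%. Pmepa1, a negative-feedback inhibitor of SMAD signalling, rose by 2.81 and 2.41, and the pseudoreceptor gene Bambi fell in both (−1.19 and −0.67). On the activin side 5 of 8 were called in the epithelial fraction (4 higher, 1 lower), 62.5% beside 41.1%. In fibroblasts 2 of 7 were called, both higher, 28.6% beside 19.2%. Fstl3, a follistatin-like activin antagonist, rose by 1.44 and 1.30 where Fst itself was called only in the epithelial fraction, and Inhbb, the activin βB subunit gene, rose by 1.86 in the epithelial fraction and was not called in fibroblasts (−0.02).

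Of 9 SMAD signal genes 5 rose in the epithelial fraction (55.6% beside 41.1% of all genes), and 2 rose and 2 fell in fibroblasts (44.4% beside 19.2%). The SMAD co-repressor genes Skil and Ski rose by 1.79 and 1.03 in the epithelial and by 0.91 and 0.63 in the fibroblast fraction. All 6 response genes rose in the epithelial fraction (100% beside 41.1%) and 5 of 6 in fibroblasts (83.3% beside 19.2%). Among them were Acta2, smooth muscle actin (5.71 and 3.25), Fn1, fibronectin (4.17 and 1.26), and Ccn2, connective tissue growth factor (2.09 and 2.21). In vehicle cultures the median difference of the response genes was −2.64 (log2, epithelial over fibroblast). Their epithelial changes thus include fibroblast RNA, whose mean share was 27.7% with TGF-β against 5.90% with vehicle. How much of the rise was epithelial was not tested for these genes. With IPFc the 7 called epithelial genes included Fbn1 (1.43), Pmepa1 (1.45), Acta2 (1.31) and Fn1 (1.11), beside a mean fibroblast share of 11.1% against 5.90% with vehicle, and after subtraction only 2 genes of the whole list were called by the markers and 0 by Xist.

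The genes most like each member were sought in the fraction where the member was higher, by Pearson's r of log2 CPM over its 15 libraries after the mean of each mouse had been subtracted, among 10571 epithelial or 10758 fibroblast genes. The points share the treatments, so this is a description. In fibroblasts Tgfb1 was closest to Igfbp7 (r = 0.984) and Rnf149 (0.978), Inhba to Vash2 (0.990) and Pmepa1 (0.985), Tgfb3 to Kctd11 (0.986), Tgfbr3 to C1qtnf1 (0.990), Ltbp3 to Emilin1 (0.982), Ltbp1 to Tarsl2 (0.938) and Fst to Rpl39 (0.926). In the epithelial fraction Tgfb2 was closest to Bmp3 (r = 0.913) and Ctsc (0.906), Tgfbr1 to Rap1gds1 (0.941) and Tgfbr2 to Wnt7b (0.966).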

How the data were processed

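RNA-sequencing was carried out on the epithelial and fibroblast fractions of the organoid cultures (30 libraries, 55487 genes). The files hold the counts of reads per gene that the authors deposited, not normalized. Per the labels, adapters were trimmed with Trimmomatic 0.30, and DESeq2 1.34.0 is named in the submitters' processing notes. The study's methods name a directional library kit, but the aligner, the counter and its use of strand are not given in the sources used here. Whether reads of overlapping antisense genes were counted apart is thus not known. The labels name build GRCm39 and the study's methods GRCm38 patch 6. Gene positions and exon lengths were taken from GENCODE vM39 (GRCm39), which held 93.2% of the gene IDs.

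Libraries were grouped by fraction and treatment from the labels. Genes that averaged 1 raw read or more were fitted with edgeR 4.0.16 (R 4.3.3; TMM scaling, quasi-likelihood F test, Benjamini-Hochberg over all genes tested, threshold 0.05), with treatment and mouse as terms, in 1 fit of 15 libraries per fraction. The vehicle comparison of the fractions used all 30 libraries, and the difference between the fractions in a response was tested as an interaction with mouse within fraction as a block. The labels give the mouse, so equal numbers mark the same mouse. Deviations from the group means had a mean correlation of 0.264 (epithelial) and 0.283 (fibroblast) between libraries of the same mouse, and of −0.0851 and −0.0922 between different mice. Libraries of a group differed by 5.76 to 83.2 times the counting variance, so none was a repeat of another. Libraries held 5113828 to 20317181 counted reads, and the common biological coefficient of variation was 12.7% in the epithelial and 16.9% in the fibroblast fit.

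The share of the other fraction's RNA was estimated from the markers of the other fraction (20 listed) with at least 50 CPM in the partner library, which were 15 to 20 genes, or in the mean of the remaining libraries of the group for the 2 libraries without a partner, and was subtracted as share times partner level. The partner was used as it stood, although it holds RNA of the other fraction itself. Subtracted counts were rounded and were not allowed to go negative. In the epithelial EC library of mouse 1 the share by Xist (45.8%) exceeded the whole level of Tgfb1, Inhba, Tgfbr3, Ltbp1, Ltbp3 and Fst. That library was part of the epithelial fits, so calls lost by Xist for these genes do not show that a change was absent. The same with Xist and 4 Y-linked genes was chosen after seeing the data. Other alternatives were no filter, filterByExpr, DESeq2 size factors, DESeq2 1.42.0, no block, only the groups compared, and each mouse left out. The members, the pathway list, the markers and the rules were chosen with earlier results of these data known. All 10 members were named, and of the other pathway genes at most 3 per role, those with the smallest adjusted p in any treatment comparison. The scripts were tested on simulated data. Figures were drawn with matplotlib 3.10.9.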

Additional observations from a re-analysis of the deposited data

Results flagged for a closer look

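Of 60 pairs of a member and a group of 4 libraries, 2 held a library set apart from the others by Dixon's criterion, which chance gives in about 1 in 20 groups. Tgfb3 in the epithelial EC group was at 75.5 CPM in mouse 3 and at 53.3 to 56.5 CPM in the other mice. Tgfbr1 in the same group was at 97.3 CPM in mouse 4 and at 116 to 119 CPM in the other mice.

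The response to a treatment differed between the fractions, by the test of the difference itself, in 11 cases, each given as epithelial minus fibroblast log2 change. For EC these were Inhba (0.75, from 0.36 and −0.39) and Tgfbr3 (0.96, from 0.52 and −0.45). For TGF-β they were Tgfb2 (1.07), Tgfb3 (−1.04), Inhba (2.25), Tgfbr1 (1.22), Tgfbr2 (−0.57), Tgfbr3 (2.64), Ltbp1 (2.83), Ltbp3 (1.23) and Fst (1.47). The share of the other fraction's RNA moved with the treatment in both fractions, from a mean of 5.90% with vehicle to 27.7% with TGF-β in epithelial and from 20.9% to 2.11% in fibroblast libraries. After subtraction by the markers the TGF-β differences of Tgfb3, Inhba, Tgfbr3, Ltbp1 and Ltbp3 were called, and by Xist and Y-linked genes those of Tgfb3 and Tgfbr3. That of Tgfbr3 rests on an epithelial vehicle level of little or none after subtraction.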

How the results depend on the processing

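For the alternative settings in this section the share of all genes called in the same fit is not given. A count that moved may thus have moved with that share. Subtracting the other fraction's RNA changed the results most, and the members' calls after TGF-β in the epithelial fraction went from 9 to 8 by the markers and to 5 by Xist and Y-linked genes. By these measures the count went from 1 to 0 and 0 for epithelial EC, from 3 to 1 and 1 for epithelial IPFc, from 2 to 0 and 0 for fibroblast EC, from 5 to 3 and 3 for fibroblast IPFc against TGF-β, from 2 to 1 and 0 for the EC difference between fractions and from 9 to 5 and 2 for the TGF-β difference; for epithelial IPFc against TGF-β Xist left 4 of 9. Called results turned direction for Tgfb1 in the epithelial fraction with TGF-β (−0.43 and −1.94) and against IPFc (0.059 and 1.76), and for Tgfb2 in fibroblasts with TGF-β (0.82 and 0.68). By Xist alone they turned for Ltbp3 (0.15) and Fst (0.49) in epithelial IPFc against TGF-β, and by the markers alone for the EC difference of Tgfbr3 (−0.25). The EC difference of Tgfb2, not called as counted (−0.42), turned by both measures (3.21 and 0.43). It was called only after subtraction by the markers, and is the 1 EC difference in the count above, where neither call as counted stood. Of 240 single-gene results under subtraction 189 stayed called or stayed uncalled, but 33 of these, all uncalled, turned sign; 39 lost a call, 2 gained one, and 10 were called in either fit and turned sign. Uncalled results that turned by both measures in a treatment comparison were Tgfb1 in epithelial IPFc (−0.37 and −0.18), Tgfb2 (−3.49 and −0.48) and Tgfbr1 (−0.60 and −0.28) in fibroblast EC, Tgfb2 in fibroblast IPFc (0.35 and 0.01), and Ltbp3 and Fst in fibroblast TGF-β.

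Without the mouse as a block 7 epithelial and 4 fibroblast genes were called after TGF-β, 2 after epithelial IPFc, 1 after fibroblast EC and 0 for the EC difference; Tgfb2 and Tgfbr3 (epithelial TGF-β), Tgfb2 and Ltbp1 (fibroblast TGF-β), Tgfbr2 (epithelial IPFc), Tgfbr3 (fibroblast EC and epithelial IPFc against TGF-β) and the EC differences of Inhba and Tgfbr3 were no longer called. No filter gave 4 calls for epithelial EC, 1 for fibroblast EC and 1 for the IPFc difference. DESeq2 size factors gave 1 for fibroblast EC, and fits of only the groups compared gave 2 for epithelial EC, 5 for epithelial IPFc and 1 for fibroblast EC. Leaving out 1 mouse gave 0 to 2 calls for epithelial EC, 0 to 3 for fibroblast EC, 0 to 1 for fibroblast IPFc and 0 to 2 for the EC difference, and of 480 single-gene results 443 stayed called or stayed uncalled, 21 of them uncalled with the sign turned, while 30 lost a call and 7 gained one. For the pathway list no filter gave 8 calls for epithelial EC, 13 for epithelial IPFc and 12 for fibroblast EC, no block gave 1 for epithelial EC and 3 for fibroblast EC, and only the groups compared gave 11 for epithelial IPFc and 11 for fibroblast EC. The cause of these changes was not tested beyond what each setting removes.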
